A study of Mus musculus with 2 samples.

Results

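The 48 genes described here encode the machinery that copies DNA: the origin recognition complex and the factors that license origins, the MCM2-7 helicase and its partners, the polymerases, the sliding clamp and its loader, the single-strand binding protein RPA, the enzymes that join lagging-strand fragments, the enzymes that supply deoxynucleotides, and Uhrf1. They were listed by name and function, and all 48 were found among the 43346 gene rows of the deposited tables. The tables hold RNA-seq of whole lung from healthy mouse embryos of strain B6NCrl on embryonic day 16.5. The samples form a single group of 2 biological replicates, each pooled from male and female embryos, with 41 embryos stated for replicate 2 and no number stated for replicate 1. RNA longer than 200 nt was assayed from 10 ng per library, with spike-ins added, and no treatment or genetic change is given in the labels.

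Origins are licensed before S phase, when ORC, CDC6 and CDT1 load the ring-shaped MCM2-7 complex on DNA, and geminin, the product of Gmnn, binds CDT1 and blocks further loading. CDC45 and the GINS complex then convert the ring into the active helicase, polymerase alpha with primase lays down the first nucleotides, and polymerases delta and epsilon extend the strands on the PCNA clamp that the RFC complex loads. Many of these genes are known targets of E2F factors, which act at the entry into S phase, and at this age the fetal lung grows by division of its epithelial, mesenchymal and endothelial cells.

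Levels are in TPM, in which the reads of each transcript are divided by its length and then scaled to the same total in every library, so that genes can be set beside each other. Replicate 2 held 27145411 expected counts in total, against 38852470 in replicate 1. For a 2 kb gene, 0 counts would allow up to 0.0810 TPM in replicate 2 and up to 0.0574 TPM in replicate 1, by counting error only. The tissue label fitted its markers, as all 10 lung markers were at 10 TPM or more in both replicates, with Foxa2, a factor of the lung epithelium, lowest at 29.6 ± 3.30 TPM and Sftpc, surfactant protein C, highest at 12528 ± 2326 TPM. Values are mean ± SD (n = 2) unless given per replicate. A single group allows no comparison of conditions, and with 2 samples the smallest two-sided exact sign-flip p is 0.5, so no p-value is given. In whole tissue, fewer cells of a type and less RNA per cell cannot be told apart.

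Promoters of the members are shown first, because exact matches to the E2F consensus were frequent in them. The RefSeq windows for build GRCm38, from 250 bases before to 50 bases after each start, covered 40 of the 48 members, while Mcm4, Gmnn, Gins1, Gins2, Gins4, Rfc2, Prim2 and Pole had no entry. The 8-base forms TTTCGCGC, TTTGGCGC, TTTCCCGC and TTTGCCGC, searched on both strands, occurred in 16 of these 40 members (40%), against 548 of 16522 coding genes (3.32%) and 2.26% of all 32851 windows. The sequences below are the 250 bases that end just before the start, 5′ to 3′ on the strand of the gene, for the 3 helicase subunits with a match there and for Orc1 and Cdc6, which act in helicase loading. Capitals mark the matches on either strand.
Mcm5, chr8:75109259-75109508, plus strand: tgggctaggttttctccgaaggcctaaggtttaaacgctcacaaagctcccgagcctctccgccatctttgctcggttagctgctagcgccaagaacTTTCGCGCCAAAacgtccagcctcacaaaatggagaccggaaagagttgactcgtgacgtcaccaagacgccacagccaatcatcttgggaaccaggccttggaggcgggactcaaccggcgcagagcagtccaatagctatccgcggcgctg
Mcm6, chr1:128359706-128359955, minus strand: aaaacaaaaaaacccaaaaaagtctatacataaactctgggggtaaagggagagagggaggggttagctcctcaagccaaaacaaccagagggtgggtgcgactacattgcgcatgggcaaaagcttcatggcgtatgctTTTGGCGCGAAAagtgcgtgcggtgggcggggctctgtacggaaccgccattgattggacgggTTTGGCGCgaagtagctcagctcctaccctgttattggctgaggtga
Mcm7, chr5:138171884-138172133, minus strand: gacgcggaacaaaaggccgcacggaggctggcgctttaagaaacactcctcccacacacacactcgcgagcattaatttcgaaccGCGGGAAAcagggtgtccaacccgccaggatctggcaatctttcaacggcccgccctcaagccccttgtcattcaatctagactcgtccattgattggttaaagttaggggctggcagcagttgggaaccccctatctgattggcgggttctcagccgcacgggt
Orc1, chr4:108579204-108579453, plus strand: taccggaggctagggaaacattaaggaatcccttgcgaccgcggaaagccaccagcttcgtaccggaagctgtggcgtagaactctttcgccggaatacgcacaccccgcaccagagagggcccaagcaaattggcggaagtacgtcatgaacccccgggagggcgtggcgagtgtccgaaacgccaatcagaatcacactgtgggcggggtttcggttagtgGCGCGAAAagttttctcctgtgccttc
Cdc6, chr11:98907901-98908150, plus strand: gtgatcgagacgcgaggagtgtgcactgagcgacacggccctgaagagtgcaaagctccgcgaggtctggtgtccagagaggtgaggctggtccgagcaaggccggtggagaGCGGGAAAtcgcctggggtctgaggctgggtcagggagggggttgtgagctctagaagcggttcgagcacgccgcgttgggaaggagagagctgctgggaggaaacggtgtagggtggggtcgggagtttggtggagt

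In Mcm5 the capitals hold a pair of overlapping matches, TTTCGCGC on the gene's strand at -153 and TTTGGCGC on the other strand at -149, where the position is that of the leftmost base counted back from the start. Mcm6 had the most positions, with an overlapping pair at -110 and -106 and another match at -47. Mcm7 had TTTCCCGC at -165 and a further match 17 bases after the start. Orc1 had TTTCGCGC at -27, and Cdc6 had TTTCCCGC at -138. In Mcm3 the matches lay after the start, at 20 and 39.

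**Figure D1:**
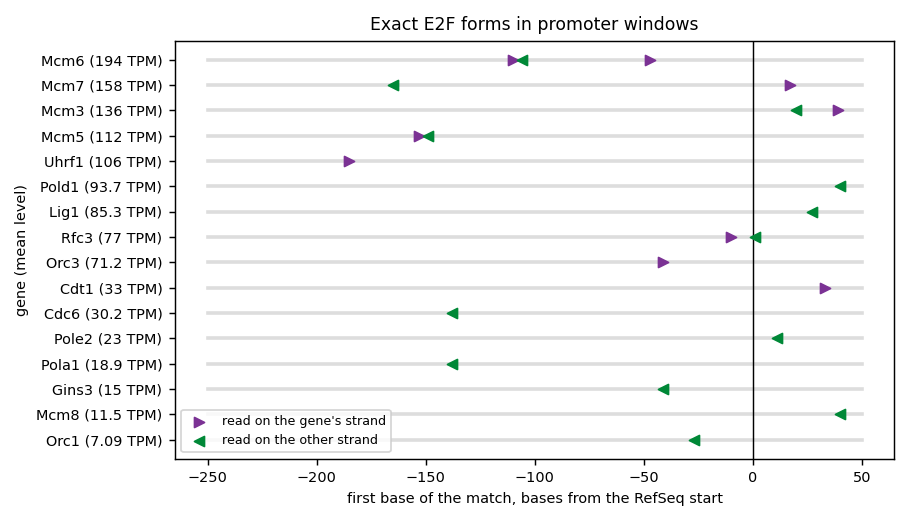
Position of each exact E2F match in the promoter windows of the 16 members that had one; the horizontal axis gives bases from the RefSeq start, grey bars span the window, and triangles point in the reading direction of the match. Members are ordered by mean level, from Mcm6 at 194 TPM down to Orc1 at 7.09 TPM, and 14 of the 22 positions lie within 100 bases of the start.

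A match did not go with a particular level. The 16 members with a match had a median of 74.1 TPM and ran from 7.09 TPM for Orc1 to 194 TPM for Mcm6. The 24 matched members without one had a median of 90.1 TPM and ran from 3.70 TPM for Mcm9 to 205 TPM for Tyms. At least 2 positions were found in Mcm3, Mcm5, Mcm6, Mcm7 and Rfc3. With the first T left off, the 7-base forms occurred in 25 of 40 members (62.5%), against 14.1% of coding genes. Of the other motifs searched on both strands, CCAAT was in 26 of 40 (65%) against 42.1% of coding genes, the GC box GGGCGG in 31 of 40 (77.5%) against 51.0%, and TTTGAA, the core of the element bound in many mitotic promoters, in 5 of 40 (12.5%) against 17.6%. These are matches of letters, and binding was not measured.

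The replication genes were all expressed and most were high. All 48 members were at 1 TPM or more in both replicates, 46 (95.8%) at 10 TPM or more and 32 (66.7%) at 50 TPM or more. Among the 21474 coding genes these shares were 61.5%, 40.3% and 14.4%. The median member had 80.8 TPM in replicate 2 and 84.6 TPM in replicate 1, 82.7 ± 2.71 TPM, and the median coding gene 4.87 ± 0.219 TPM. Ranked among coding genes by mean TPM, the median member stood at percentile 91.0, 27 members stood at or above percentile 90, and the lowest, Mcm9, at percentile 47.1. Together the members took 0.399 ± 0.0128% of all TPM and 0.530 ± 0.0131% of the expected counts. Counts per member ran from 306 for Mcm9 in replicate 2 to 15071 for Mcm6 in replicate 1. Between the replicates the median coefficient of variation was 3.88%, and the highest was 14.3%, for Rfc1.

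**Figure D2:**
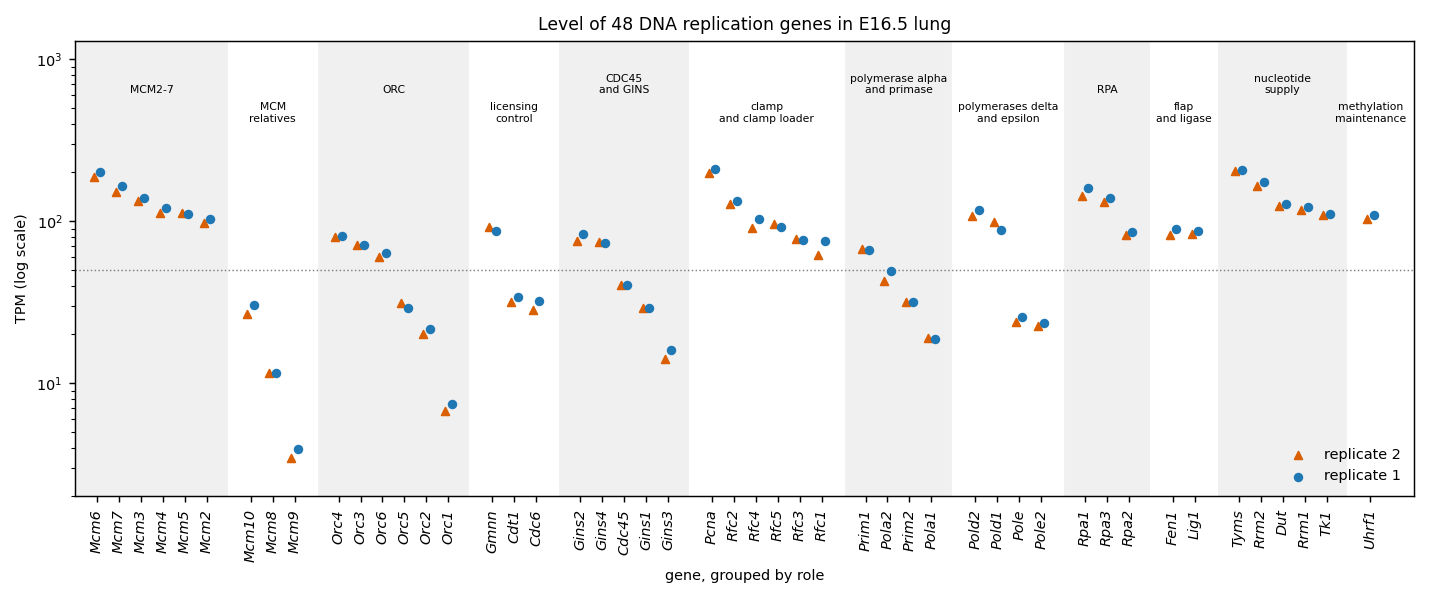
Level of each member in TPM on a log scale, with triangles for replicate 2 and circles for replicate 1, grouped by role and ordered by mean level within a role; the dotted line marks 50 TPM. The MCM2-7, clamp and loader, RPA and nucleotide supply genes, Fen1, Lig1 and Uhrf1 lie above the line. The ORC genes spread from Orc4 at 80.2 TPM to Orc1 at 7.09 TPM.

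The subunits that recognize origins were uneven. Orc4 had 79.6 TPM in replicate 2 and 80.9 TPM in replicate 1. Orc1, the largest subunit and the one whose amount is known to be regulated through the cell cycle, had 6.73 TPM in replicate 2 and 7.45 TPM in replicate 1. The ratio of Orc4 to Orc1 was 11.3 ± 0.686, the widest range of the 12 role groups over all transcripts. That place went to nucleotide supply in coding transcripts alone, at 9.47 ± 0.604-fold against 9.43 ± 0.2004-fold for the ORC genes. Between them lay Orc3 at 71.2 ± 0.0849 TPM, Orc6 at 61.5 ± 2.45 TPM, Orc5 at 30.1 ± 1.46 TPM and Orc2 at 20.8 ± 0.976 TPM. Each gap between neighbours in this order exceeded the difference between the replicates. The place of Orc4 depends on its noncoding transcripts, described below: in coding transcripts alone it had 21.9 ± 1.47 TPM, close to Orc2 at 20.8 ± 0.969 TPM, and Orc6 led the complex.

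Among the factors of licensing, the inhibitor was higher than its target. Gmnn had 92.4 TPM in replicate 2 and 86.6 TPM in replicate 1. Cdt1, which geminin binds, had 31.8 TPM in replicate 2 and 34.3 TPM in replicate 1. The log2 ratio of Cdt1 to Gmnn was -1.54 in replicate 2 and -1.34 in replicate 1, a 2.71-fold lower level of Cdt1. Gmnn transcripts are the shorter, and in expected counts not divided by length the log2 ratio was -0.153 ± 0.149, which no longer exceeded 2 SD. Cdc6, the ATPase that loads MCM2-7 with ORC, had 28.4 TPM in replicate 2 and 32.1 TPM in replicate 1. It stood 4.26-fold above Orc1, with a log2 ratio of 2.09 ± 0.0210. By the posterior mean TPM this was 3.635-fold, with a log2 ratio of 1.86 ± 0.0770.

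The 6 helicase genes were high and close to each other. Mcm6 led with 187 TPM in replicate 2 and 201 TPM in replicate 1, and Mcm2 was lowest with 97.7 TPM in replicate 2 and 103 TPM in replicate 1. The range was 1.93 ± 0.0264-fold, although the products are present in equal number in the ring. Mcm7 had 158 ± 10.2 TPM, Mcm3 136 ± 4.48 TPM, Mcm4 116 ± 6.43 TPM and Mcm5 112 ± 1.08 TPM. Mcm4 and Mcm5 could not be ordered, as Mcm4 was lower in replicate 2, at 111.6 TPM against 112.4 TPM for Mcm5, and higher in replicate 1, at 121 TPM against 111 TPM. The leading transcript of each was coding and held all TPM of Mcm2, Mcm4 and Mcm5, 95.7 ± 0.212% of Mcm6, 73.8 ± 1.51% of Mcm3 and 71.6 ± 3.92% of Mcm7. The coding transcripts of Mcm3 had 96.3 TPM in replicate 2 and 103.8 TPM in replicate 1, level with Mcm2 at the bottom of the group.

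The MCM relatives outside the ring were far lower. Mcm10, an initiation factor that helps to activate the helicase, had 26.8 TPM in replicate 2 and 30.5 TPM in replicate 1. Mcm8 had 11.5 TPM in both replicates, and its partner Mcm9, which acts with it in repair by homologous recombination, had 3.46 TPM in replicate 2 and 3.93 TPM in replicate 1. Relative to Mcm2 these levels were 3.52-fold, 8.72-fold and 27.3-fold lower, with log2 ratios of -1.82 ± 0.0760, -3.12 ± 0.0580 and -4.77 ± 0.0730. Mcm10 was 5.58-fold below Mcm2 in coding transcripts alone. Mcm8 was 3.13-fold above Mcm9, and 1.63-fold above it in counts not divided by length.

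CDC45 and the GINS subunits, which complete the helicase, also spread widely. Gins2 had 75.4 TPM in replicate 2 and 82.9 TPM in replicate 1, against 14.1 TPM in replicate 2 and 15.9 TPM in replicate 1 for Gins3. The other levels were 73.7 ± 0.325 TPM for Gins4, 40.5 ± 0.0354 TPM for Cdc45 and 29.2 ± 0.0354 TPM for Gins1. The range was 5.28 ± 0.105-fold. In coding transcripts alone Gins2 had 17.6 ± 0.460 TPM and Gins4 led, with a range of 4.93 ± 0.449-fold. Cdc45 was 2.48-fold below Mcm2, with a log2 ratio of -1.31 ± 0.0580, and 4.29-fold below it in counts not divided by length.

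By group medians the polymerases were lower than the clamp and its loader, although single genes overlapped. The median was 38.9 ± 2.43 TPM over polymerase alpha and primase, 59.2 ± 2.92 TPM over polymerases delta and epsilon, and 95.9 ± 3.25 TPM over the clamp and its loader. The median over delta and epsilon lay between the higher Pold1 and Pold2 and the lower Pole and Pole2. Pold2, at 112 ± 7.45 TPM, was above every loader subunit but Rfc2. Both polymerase groups had close medians in coding transcripts alone, at 38.4 ± 1.10 TPM over delta and epsilon and 36.6 ± 2.43 TPM over alpha and primase. Pola1, the catalytic subunit of polymerase alpha, had 19.0 TPM in replicate 2 and 18.8 TPM in replicate 1. The accessory subunit Pola2 had 42.7 TPM in replicate 2 and 49.4 TPM in replicate 1, a log2 ratio of Pola1 to Pola2 of -1.28 ± 0.160. In counts not divided by length this ratio was -0.151 ± 0.174 and did not exceed 2 SD. Prim1, the catalytic subunit of primase, had 67.2 TPM in replicate 2 and 66.2 TPM in replicate 1, and was 2.10-fold above Prim2, its large subunit, with 31.6 TPM in replicate 2 and 31.8 TPM in replicate 1.

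The catalytic subunit of the lagging-strand polymerase exceeded that of the leading-strand one. Pold1 had 98.7 TPM in replicate 2 and 88.8 TPM in replicate 1. Pole had 23.9 TPM in replicate 2 and 25.6 TPM in replicate 1, and the log2 ratio of Pold1 to Pole was 1.92 ± 0.178, or 3.79-fold. In coding transcripts alone the log2 ratio was 1.56, and in counts not divided by length 1.33. The accessory subunits Pold2 and Pole2 followed the same division. Pold2 had 107 TPM in replicate 2 and 117 TPM in replicate 1. Pole2 had 22.5 TPM in replicate 2 and 23.6 TPM in replicate 1. The other accessory subunits did not follow it, with 59.7 ± 0.65 TPM for Pold3 and 25.3 ± 3.04 TPM for Pold4. Pole3 had 68.6 ± 2.04 TPM and Pole4 90.1 ± 7.58 TPM. Within delta the order of Pold1 and Pold2 did not hold, as the log2 ratio of -0.259 ± 0.204 was smaller than 2 SD. Pold1 was below Pold2 in coding transcripts alone, at -0.717 ± 0.0420, and in counts not divided by length above it, at 0.478 ± 0.0930. Within epsilon Pole was 1.07-fold above Pole2, and in coding transcripts alone the log2 ratio turned to -0.335 ± 0.264, whereas in counts not divided by length it was 1.14 ± 0.0800.

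Pcna, the sliding clamp that binds both polymerases, had 200 TPM in replicate 2 and 210 TPM in replicate 1, and 93.4 ± 0.149% of its TPM was in the coding transcript Pcna-201. The loader subunits had 130 ± 4.62 TPM for Rfc2, 97.4 ± 9.05 TPM for Rfc4, 94.4 ± 2.55 TPM for Rfc5 and 77.04 ± 1.09 TPM for Rfc3. Rfc4 and Rfc5 could not be ordered, as Rfc4 was lower in replicate 2 and higher in replicate 1. Rfc1, the large subunit, was lowest with 61.7 TPM in replicate 2 and 75.5 TPM in replicate 1. This level leans on a short leading transcript of 386 nt effective length, which held 44.4 ± 4.95% of TPM and 8.43 ± 0.129% of counts. Pcna was 2.998-fold above Rfc1, and Rfc1 was 1.42-fold below Rfc4, an order that turned in counts not divided by length, with a log2 ratio of 0.540 ± 0.0270. The pseudogene Pcna-ps2 was listed at 3.23 TPM in replicate 2, against 1.60 TPM in replicate 1, and Pcna-ps1 at 0 in both, so the estimator gave Pcna copies little of the signal.

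RPA, which coats single-stranded DNA, had a median of 135 ± 5.16 TPM over its genes. Rpa1, the large subunit, had 143 TPM in replicate 2 and 160 TPM in replicate 1, Rpa3 had 131 TPM in replicate 2 and 139 TPM in replicate 1, and Rpa2 had 81.9 TPM in replicate 2 and 86.3 TPM in replicate 1. Rpa2 was lowest in both replicates, at log2 ratios of -0.683 ± 0.00200 to Rpa3 and of 0.848 ± 0.0590 for Rpa1 over Rpa2. Rpa3 transcripts are short, and in counts not divided by length Rpa2 was above Rpa3, at 0.804 ± 0.0430. Fen1, the flap endonuclease, had 82.7 TPM in replicate 2 and 88.9 TPM in replicate 1. Lig1, the ligase that seals lagging-strand fragments, had 83.6 TPM in replicate 2 and 87.0 TPM in replicate 1. The order of Fen1 and Lig1 turned between the replicates, with log2 ratios of -0.016 in replicate 2 and 0.030 in replicate 1. Fen1 was above Lig1 in coding transcripts alone, at 0.231 ± 0.0230, and in counts not divided by length, at 0.393 ± 0.0180. Lig1 was 3.85-fold above Lig3, the ligase of mitochondria and of repair, with a log2 ratio of 1.95 ± 0.185, and 1.35-fold above it in counts not divided by length.

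The genes of nucleotide supply were high, and Rrm2 and Tk1 stood far above the counterparts that serve cells outside S phase or mitochondria. Rrm2, the small subunit of ribonucleotide reductase that is made in S phase, had 164 TPM in replicate 2 and 174 TPM in replicate 1. Rrm2b, the alternative small subunit, had 8.27 TPM in replicate 2 and 7.86 TPM in replicate 1, and the log2 ratio of Rrm2 to Rrm2b was 4.39 ± 0.112, or 20.95-fold, and in counts not divided by length 13.3-fold. The cytosolic thymidine kinase Tk1 had 110 TPM in replicate 2 and 111 TPM in replicate 1, 10.8-fold above the mitochondrial Tk2 at 10.2 ± 0.127 TPM. The ratio of Tk1 to Tk2 was 6.39-fold in coding transcripts alone and 5.07-fold in counts not divided by length. Rrm1, the large subunit, had 118 TPM in replicate 2 and 123 TPM in replicate 1, 1.40-fold below Rrm2. Counts not divided by length gave the other order, with a log2 ratio of Rrm1 to Rrm2 of 0.476 ± 0.0140.

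Tyms, which makes thymidylate, had 203 TPM in replicate 2 and 207 TPM in replicate 1, the highest mean of all members at 205 ± 2.79 TPM and level with Pcna at 205 ± 6.95 TPM. Dut, which removes dUTP, had 124 TPM in replicate 2 and 127 TPM in replicate 1. The log2 ratio of Tyms to Dut was 0.708 ± 0.00900. It rests on transcripts of Tyms that are not annotated as coding. In coding transcripts alone the log2 ratio of Tyms to Dut was -2.86 ± 0.0550. Uhrf1, which brings the maintenance methyltransferase to newly copied DNA, had 104 TPM in replicate 2 and 109 TPM in replicate 1. It was 2.04-fold above its paralogue Uhrf2, or 4.70-fold in coding transcripts alone, and 1.52-fold above Dnmt1, the methyltransferase itself. The last order turned in counts not divided by length, with a log2 ratio of -0.079 ± 0.0350.

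How much of each level came from coding transcripts differed among the members. The 48 genes had 228 transcript rows. Classes could be assigned for 47 members, as 93.03% of the TPM of Rfc1 was in transcripts not found in the annotation used. In 28 of the 47 at least 90% of TPM was in coding transcripts, and 10 had a single, coding transcript. The median share was 93.4% of TPM for the members and 98.5% for 13388 coding genes. Only Tyms, Gins2 and Orc4 were under 50%, 3 of 47 members, where 7.57% of coding genes were. The leading transcript was the same in both replicates for every member. A retained intron class took at least 10% of TPM in 15 members (31.9% of the 47), against 18.4% of the coding genes. That share was taken by TPM only, which gives short transcripts more weight. By counts the median coding share was 97.7% for the members and 99.5% for the coding genes.

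Tyms had the lowest share, 8.57% in replicate 2 and 8.18% in replicate 1. Its coding transcript Tyms-201 had 17.4 TPM in replicate 2 and 16.9 TPM in replicate 1, with an effective length of 3064 nt. The leading transcript Tyms-205, annotated as a target of nonsense-mediated decay, had 94.7 TPM in replicate 2 and 89.97 TPM in replicate 1 on an effective length of 698 nt. The retained intron transcript Tyms-202 followed with 55.0 TPM in replicate 2 and 66.1 TPM in replicate 1. Counts gave a larger coding share of 22.1 ± 0.324%, still the lowest of the members with assigned classes. TPM divides by length, so that a count on a short transcript weighs more than on a long one.

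Gins2 was led by Gins2-204, a retained intron transcript with an effective length of 412 nt, which held 70.1 ± 0.0919% of TPM and 23.7 ± 0.276% of counts. Its coding transcript Gins2-201 held 22.3 ± 0.912% of TPM, although 71.1% of the counts in replicate 2 and 68.3% in replicate 1 were assigned to it. In Orc4 the TPM was divided among 13 transcripts, led by the processed transcript Orc4-212 with 26.4 ± 3.87%. Coding transcripts held 27.3 ± 1.52% of the TPM and 51.4 ± 0.969% of the counts of Orc4. By counts, Tyms alone of the 47 members was under 50%, where 4.00% of coding genes were. Next in order by TPM were Pold1 at 57.7 ± 5.79%, Tk1 at 59.3 ± 2.18% and Mcm10 at 63.2 ± 3.67%. Pole differed most between the replicates, with 84.8% in replicate 2 and 64.3% in replicate 1.

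**Figure D3:**
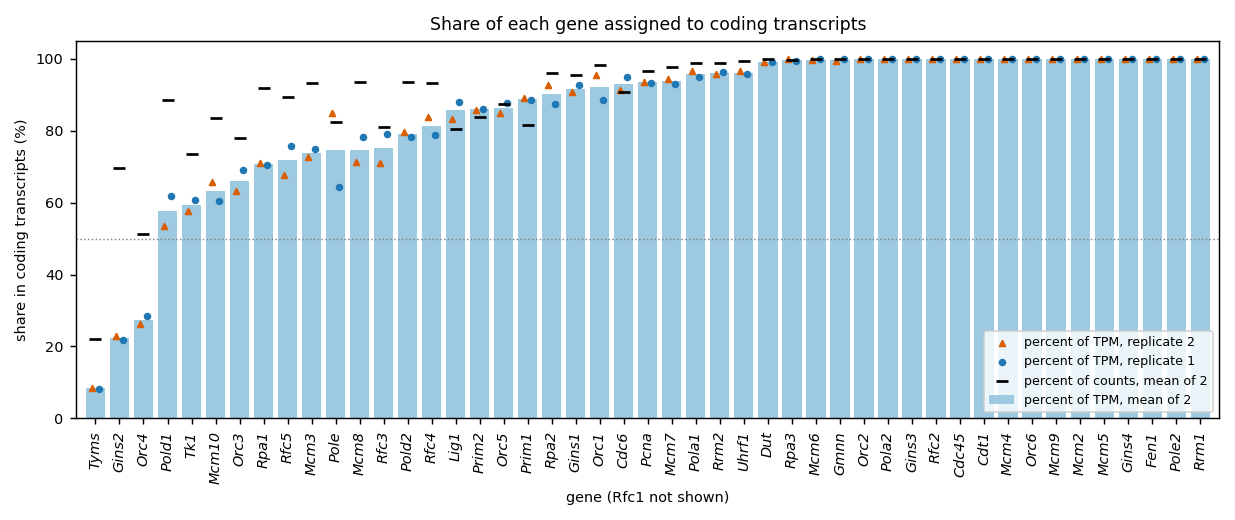
Percent of the TPM of each gene in transcripts annotated as coding (bars, mean of 2 replicates; triangles, replicate 2; circles, replicate 1) and percent of its counts (black dashes, mean) for 47 members. Tyms, Gins2 and Orc4 lie under the dotted line at 50% by TPM, and by counts Tyms alone does.

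On coding transcripts alone the median of the 47 members was 61.6 ± 2.31 TPM, and 27 had 50 TPM or more in both replicates. The same 3 groups led as over all transcripts, in another order, with nucleotide supply at 120.5 ± 3.82 TPM, MCM2-7 at 114 ± 2.65 TPM and RPA at 107 ± 7.85 TPM, and Tyms was then the lowest gene of nucleotide supply.

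Neighbouring genes matter for these values, because the strand setting of the counting is not given in the sources used here, and without strand the reads of overlapping genes cannot be told apart. Another gene at a mean of 1 TPM or more overlapped the span of 15 members (31.2%), introns included, as it did for 25.9% of the 13469 coding genes at that level. The longest overlaps on the opposite strand were those of Orc2 with Nif3l1 (19046 bases, 31.5 TPM) and Mcm9, the lowest member, with Asf1a (12469 bases, 43.0 TPM), both at a higher level than the member. The overlaps of Mcm7 with Cops6 (64 bases, 248 TPM), Fen1 with Tmem258 (156 bases, 414 TPM), Rfc4 with Eif4a2 (194 bases, 170 TPM), Orc6 with Vps35 (171 bases, 136 TPM) and Cdc45 with Ufd1 (209 bases, 68.6 TPM) were also on the opposite strand and with a gene of higher level, but short. Gm20388, which spans Cdt1 and Gins2, was listed at 8.97 TPM in replicate 2 and at 0 in replicate 1. A coding gene started divergently within 1000 bases of 8 members (16.7%), against 6.77% of the 22028 annotated coding genes, here counted whatever their level. These were Mcm4 with Prkdc, Mcm8 with Trmt6, Orc1 with Prpf38a, Orc3 with Rars2, Gins1 with Abhd12, Pole with Pxmp2, Rpa1 with Smyd4 and Rpa3 with Umad1. Levels within these pairs could differ widely: Prpf38a, whose start lies 87 bases from that of Orc1, had 67.2 TPM and Orc1 7.09 TPM, whereas Prkdc had 5.64 TPM and Mcm4 116 TPM.

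Other genes of replication and the cell cycle were expressed with them. Of 45 other replication genes, all were at 1 TPM or more in both replicates, 41 (91.1%) at 10 TPM or more and 14 (31.1%) at 50 TPM or more, with a median of 39.2 ± 0.262 TPM. The highest were Dtymk, thymidylate kinase, at 197 ± 3.72 TPM, Pclaf, a PCNA-binding factor, at 176 ± 6.82 TPM and Tipin, of the fork protection complex, at 147 ± 7.63 TPM. The lowest were the initiation factors Ticrr at 4.19 ± 0.658 TPM and Recql4 at 5.26 ± 0.106 TPM, and Rrm2b at 8.07 ± 0.290 TPM. The 16 S phase regulators had a median of 22.3 ± 0.248 TPM, from the E2F factor E2f3 at 9.80 ± 2.31 TPM to cyclin A2, Ccna2, at 167 ± 13.3 TPM. The 15 mitotic genes had a median of 79.6 ± 4.08 TPM, from the kinetochore motor Cenpe at 22.96 ± 1.195 TPM to the kinase Cdk1 at 477 ± 13.5 TPM.

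Members tended to be slightly lower in replicate 2. Differences were taken as log2(TPM + 1) of replicate 2 minus that of replicate 1, a scale that shrinks those of low genes. By it, 37 of 48 members were below 0, where 49.5% of the 15493 genes with a mean of 1 TPM or more were. The median was -0.073 for the members and 0.0015 for all genes compared. By counts scaled with TMM, 42 of 48 members were below 0, where 54.5% of all genes were, with medians of -0.089 and -0.0167. The exact 95% counting interval lay below 0 in 27 of 48 members, against 21.7% of genes, and above 0 in 0 of 48, against 14.9%. The interval covers counting error only and narrows as counts rise. The shares of 21.7% and 14.9% were not matched to the members for level. With 2 pools the spread between embryos was not estimated.

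Each difference was small. Rfc1 alone reached 1.2-fold, at -0.287 (1.22-fold lower), so that 1 of 48 was lower by that size, where 5.69% of genes were, and 0 of 48 were higher, where 12.9% of genes were. Among the 9255 genes with a mean of 10 TPM or more, which 46 members reach, 3.54% were lower and 4.88% higher by that size, and 56.3% were lower by any size against 35 of the 46 members. The effective length of Rfc1 was 2170 nt in replicate 2 and 1893 nt in replicate 1. By counts its difference was -0.108 with a counting interval of -0.182 to -0.035. The largest drop was in an Rfc1 transcript of 586 nt effective length, with 4.32 TPM in replicate 2 and 15.8 TPM in replicate 1. The longest, of 4652 nt, was higher in replicate 2, at 16.3 TPM against 13.1 TPM, and most of the others were lower. At the other end Pold1 was higher in replicate 2 by 0.152 in TPM, with effective lengths of 2073 nt in replicate 2 and 2281 nt in replicate 1 and a difference by counts of 0.002. After Rfc1, the lowest were Pola2 at -0.205, Rfc4 at -0.188 and Mcm10 at -0.181. Among the mitotic genes 12 of 15 were below 0, with a median of -0.091. Among the S phase regulators 13 of 16 were, with a median of -0.127. Of the 45 other replication genes 30 were, with a median of -0.060, and 3 were lower by 1.2-fold or more.

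Markers of other tissues moved with the replicates in the opposite direction. The summed level of 8 liver markers was 519 TPM in replicate 2 and 63.6 TPM in replicate 1, and that of 7 skeletal muscle markers 526 TPM in replicate 2 and 190 TPM in replicate 1. The 9 thymus markers summed to 42.0 TPM in replicate 2 and 16.2 TPM in replicate 1, and the 9 erythroid markers to 28061 TPM in replicate 2 and 23383 TPM in replicate 1. At 1.2-fold or more higher in replicate 2 were 8 of 8 liver, 7 of 7 skeletal muscle, 7 of 7 thymus markers with a mean of 1 TPM, and 7 of 9 erythroid markers. Of all genes compared, 12.9% were. The lung markers also had a higher sum, 15927 TPM in replicate 2 and 12475 TPM in replicate 1, but were divided. Of these 10, 3 were higher and 1 lower in replicate 2 by 1.2-fold or more, and 5 were below 0. None of these markers was at 0 in both replicates. Their part in the difference of the replication genes was not tested.

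**Figure D4:**
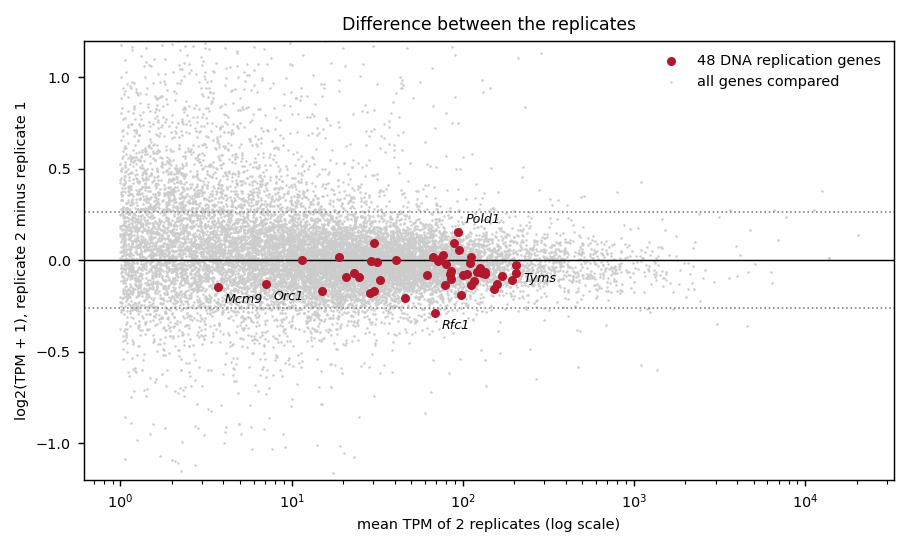
Difference between the replicates, as log2(TPM + 1) of replicate 2 minus that of replicate 1, against mean TPM on a log scale, for the 48 members (red) and all 15493 genes compared (grey); dotted lines mark 1.2-fold and 316 genes lie outside the plotted range. Most members sit just below 0, between Rfc1 at -0.287 and Pold1 at 0.152.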

How the data were processed

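Gene expression was measured by total RNA-seq in 2 lung libraries of 1 group. Per the labels, RNA was extracted with a mirVana kit. The authors deposited gene and transcript tables on build mm10 with GENCODE M4 annotation, according to the notes beside them. The aligner, the quantifier and the strand setting are not given in the sources used here. Expected counts, as deposited by the authors, estimate the reads of a gene or transcript and split reads that fit several. The TPM values deposited by the authors, per the file headers, are divided by effective length and include the spike-ins in their total. A second, posterior mean TPM, lower and upper credibility bounds (a score within 1 library, not used as an error), and each transcript's percent of its gene's TPM, all per the file headers, stand beside them.

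Symbols, classes and coordinates came from GENCODE M21 on the same build, matched by identifier without version for 42462 of 43346 rows, and 228 transcript rows of members, of which 9 had no match. Levels were averaged over replicates. A ratio's sign held if the replicates shared it and the mean of its log2 was larger than 2 SD. Replicate differences used a pseudocount of 1 and the genes that averaged 1 TPM or more. Expected counts were rounded for edgeR 4.0.16 (TMM scaling) and DESeq2 1.42.0 (size factors, an alternative) in R 4.3.3. Counting intervals are exact Clopper-Pearson at 95% on rounded, unscaled counts, with the TMM scaling then applied to the bounds. Other steps used Python 3.11.15, NumPy 2.4.6, pandas 2.3.3, SciPy 1.17.1 and matplotlib 3.10.9, and the replicate difference was tested on simulated data. Promoter windows came from RefSeq. The members, lists, pairs and motifs were chosen with earlier results of these data known. The text names every member, the genes paired with one, and the highest and lowest genes of the other lists. It also names Pold3, Pold4, Pole3 and Pole4, neighbours by position, and the leading transcripts. 1 gene ratio is not reported here. Coding transcripts alone were added as an alternative after seeing the data.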

Additional observations from a re-analysis of the deposited data

How the results depend on the processing

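No paired analysis was possible because the libraries form 1 group. The posterior mean TPM kept the members' median within 1 SD. Each count at a level threshold stayed within 1.5 times with it, and with either replicate left out where levels were averaged. The median was 80.75 TPM without replicate 1 and 84.58 TPM without replicate 2. With 2 replicates such a shift is always under 1 SD, so it cannot show how stable the median is. The median level of the members was 107.2 TPM when TPM was rescaled over coding genes, a change of scale, and 61.55 TPM in coding transcripts alone. The number of members at least 1.2-fold lower in replicate 2, 1 by TPM (Rfc1), was 0 at 1.5-fold and at 2-fold. It was also 0 with TMM scaling, DESeq2 size factors and spike-in scaling, which used the effective length of replicate 1 for both replicates. Rfc1 was then at -0.106, -0.110 and -0.087, and length and scaling had changed together. In coding transcripts alone the number was 0, but Rfc1 was not classed there and could not be counted. In that setting 1 member, Pole, was higher by 0.284 on the log2 scale. The median difference stayed below 0 in each of these settings, from -0.092 to -0.060. The 7-base E2F forms occurred in 25 members.

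With counts not divided by length, the log2 ratio turned to 0.540 for Rfc1 over Rfc4, 0.478 for Pold1 over Pold2, 0.804 for Rpa2 over Rpa3, 0.476 for Rrm1 over Rrm2 and -0.079 for Uhrf1 over Dnmt1, since the genes of a pair differ in length. Fen1 over Lig1 turned to -0.006 with the posterior mean, and over the replicates left out one at a time it ran from -0.016 to 0.030. In coding transcripts alone Pold1 over Pold2 was -0.717 and Fen1 over Lig1 0.231, both past 2 SD, Pole over Pole2 turned to -0.335, and Tyms over Dut to -2.856. Depth limited Mcm9 most, at 306 counts in replicate 2.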
